A study of Mus musculus with 12 samples.

Results

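Protein tyrosine phosphatases and dual-specificity phosphatases were examined in CD8+ T cells given an inhibitor of the histone methyltransferase EZH2. The genes were taken by symbol: 17 cytosolic tyrosine phosphatases (Ptpn genes), 21 receptor-type tyrosine phosphatases (Ptpr genes) and 24 dual-specificity phosphatases (Dusp genes), 62 of the 24421 symbols in the count tables. CD8+ T cells of C57BL/6 mice, labelled as splenocytes, received an EZH2 inhibitor (EZH2i, n = 6 libraries) or the solvent DMSO (n = 6 libraries). Which compound was used, at what dose and for how long, and how old the mice were, was not stated in the labels. Nothing there says whether the 6 libraries per group are separate animals, so the p-values cover the spread between libraries only, and this may be technical.

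Tyrosine phosphatases remove phosphate that kinases add to tyrosine, and in T cells they set how strongly the antigen receptor signals. The receptor-type phosphatase CD45 (Ptprc) keeps the kinase Lck ready to act, while cytosolic enzymes such as SHP-1 (Ptpn6), PEP (Ptpn22) and TC-PTP (Ptpn2) switch off Lck, ZAP-70, JAK kinases and STAT factors. Dual-specificity phosphatases remove phosphate from both threonine and tyrosine, and the best known among them inactivate the MAP kinases ERK, JNK and p38. EZH2, the catalytic subunit of a Polycomb complex, methylates histone H3 to mark repressed genes, and many of its sites lie at promoters rich in the dinucleotide CG.

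Promoter sequences are shown for 4 members that the results turn on: in each class, the tested member with the largest rise among those with a single promoter window in the table used, and, for contrast, the member with the largest fall. Each is the RefSeq window of 300 bases in build GRCm38.p6, from 250 bases before to 50 after the annotated start, written 5′ to 3′ on the gene's strand, with every CG in capitals. The windows lie at chr1:189728018-189728317, plus strand, for Ptpn14, chr4:118291348-118291647, minus strand, for Ptprf, chr11:101984742-101985041, minus strand, for Dusp3, and chr6:124738660-124738959, minus strand, for Ptpn6.
Ptpn14: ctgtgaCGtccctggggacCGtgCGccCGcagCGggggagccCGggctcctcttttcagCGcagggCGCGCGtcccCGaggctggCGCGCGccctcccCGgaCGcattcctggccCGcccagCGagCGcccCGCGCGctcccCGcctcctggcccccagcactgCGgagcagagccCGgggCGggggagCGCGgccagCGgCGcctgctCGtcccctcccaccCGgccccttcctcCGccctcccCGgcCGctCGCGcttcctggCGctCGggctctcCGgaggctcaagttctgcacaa
Ptprf: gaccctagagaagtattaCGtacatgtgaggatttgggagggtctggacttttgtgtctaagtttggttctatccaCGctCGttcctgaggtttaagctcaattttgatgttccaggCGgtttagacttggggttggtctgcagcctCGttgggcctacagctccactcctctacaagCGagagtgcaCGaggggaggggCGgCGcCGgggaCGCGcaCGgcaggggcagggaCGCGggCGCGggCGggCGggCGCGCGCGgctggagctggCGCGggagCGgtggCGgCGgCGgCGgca
Dusp3: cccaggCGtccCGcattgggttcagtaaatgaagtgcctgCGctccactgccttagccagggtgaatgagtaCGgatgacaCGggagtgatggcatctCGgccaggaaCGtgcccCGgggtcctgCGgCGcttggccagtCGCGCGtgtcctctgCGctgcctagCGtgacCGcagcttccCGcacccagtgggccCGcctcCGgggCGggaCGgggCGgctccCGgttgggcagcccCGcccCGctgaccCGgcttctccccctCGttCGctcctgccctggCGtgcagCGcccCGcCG
Ptpn6: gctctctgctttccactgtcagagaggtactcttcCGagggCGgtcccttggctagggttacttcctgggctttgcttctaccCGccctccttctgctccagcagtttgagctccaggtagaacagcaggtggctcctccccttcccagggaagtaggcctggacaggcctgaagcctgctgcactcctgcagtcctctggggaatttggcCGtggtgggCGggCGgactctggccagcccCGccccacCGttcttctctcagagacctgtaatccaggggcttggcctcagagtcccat
The first 3 windows, of genes that rose with EZH2i, hold 40, 30 and 32 CG, and that of Ptpn6, which fell, holds 8. These 4 were picked by the size of their change, so no comparison can be drawn from them. Ptpre, which also fell, had up to 20 CG in a window, and Ptpn3, which rose, had 18.

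The libraries held 17215483 to 31206228 counts. The library numbered 6 stood apart in both groups: on the first principal component, with 45.2% of the variance, EZH2i library 6 lay at -23.3 while the other EZH2i libraries lay between 28.3 and 35.7, and DMSO library 6 lay at -64.1 while the other DMSO libraries lay between -20.1 and -9.58. Ezh2 itself, whose enzyme the drug inhibits, averaged 234 ± 26.6 CPM (read counts scaled to the TMM library size, mean ± SD) in EZH2i and 278 ± 29.4 CPM in DMSO (edgeR adjusted p = 0.0833, with the replicate block 0.000757). Cd8a measured 885 CPM in EZH2i and 1091 CPM in DMSO, beside 14 and 11 counts of Cd4 over all libraries of a group. The marker counts that follow are to be read beside all tested genes, of which 13.3% were called higher and 6.05% lower. Of 5 tested CD8 T cell markers 2 fell (Cd8a and Cd3g) and 0 rose, with a summed level of 2216 to 3346 CPM in EZH2i and 3001 to 4080 CPM in DMSO. Of 3 tested NK cell markers 2 rose (Eomes and Klrb1c), with a summed level of 95.7 to 306 CPM in EZH2i and 48.8 to 124 CPM in DMSO and library 6 the highest of each group. Eomes alone, averaging 140 CPM in EZH2i and 70.5 CPM in DMSO, was nearly all of that sum, which therefore describes a single gene and not a level of NK cells. Klre1, the third, was not called (3.39 CPM in EZH2i and 3.43 CPM in DMSO). With 0.389 CPM in its lowest DMSO library, Klrb1c needed EZH2i libraries to pass the filter on low counts, so its call is a description. Klra8 of that list had no count, and Ncr1, the defining receptor, had 8 counts in EZH2i and 6 in DMSO. Of 2 tested myeloid markers 1 rose (Itgam), with a summed level of 6.38 to 18.5 CPM in EZH2i and 4.29 to 10.8 CPM in DMSO, and Fcgr1 at 0. Itgam averaged 11.6 CPM in EZH2i and 4.75 CPM in DMSO. The other, Cd68, was not called and averaged 3.49 CPM in EZH2i and 4.21 CPM in DMSO. Csf1r had 2 counts in EZH2i and 1 in DMSO. Of 2 tested CD4 T cell markers 1 rose (Zbtb7b), with a summed level of 23.8 to 34.8 CPM in EZH2i and 17.4 to 22.98 CPM in DMSO. Of 3 tested markers of stroma and endothelium 1 rose (Pdgfrb), with a summed level of 61.2 to 184 CPM in EZH2i and 88.7 to 196 CPM in DMSO, of which Pecam1, which T cells also express, was nearly all. With 0.119 CPM in its lowest DMSO library, Pdgfrb needed EZH2i libraries to pass the filter on low counts, so its call is a description. The part of such markers in the results below was not tested. In these bulk samples, fewer cells of a type and less RNA per cell cannot be told apart.

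Of the 62 phosphatase genes, 41 passed the filter on low counts and were tested, 21 did not, and 4 of those had no count at all (Ptpn20, Ptprq, Ptprt and Dusp21). With EZH2i, 13 members rose and 4 fell at a Benjamini-Hochberg adjusted p under 0.05 in edgeR's quasi-likelihood test over all 11727 genes tested. Called members were thus 41.5% of those tested, where 19.3% of all tested genes were called, 13.3% higher and 6.05% lower. The low-abundance genes of the data moved mostly upward, and the members that rose were mostly of low or middle abundance. Tested genes were split into 4 equal bins by mean level. In the lowest bin, up to 8.61 CPM, 6 of 13 members rose and 1 fell, where 30.0% of genes rose and 0.887% fell. In the next, up to 30.5 CPM, 4 of 9 members rose and 1 fell, where 13.9% of genes rose and 3.75% fell. In the third bin, up to 77.7 CPM, 3 of 9 members rose and 0 fell, where 5.8% of genes rose and 7.88% fell. In the highest bin, 0 of 10 members rose and 2 fell, where 3.44% of genes rose and 11.7% fell. The median log2 fold change was 0.14 over the 41 tested members and -0.01 over all tested genes. A member low in DMSO could pass the filter through EZH2i alone, as Ptprf did, so the tested members are not all members. Ptprf is counted among the 13 that rose.

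**Figure D1:**
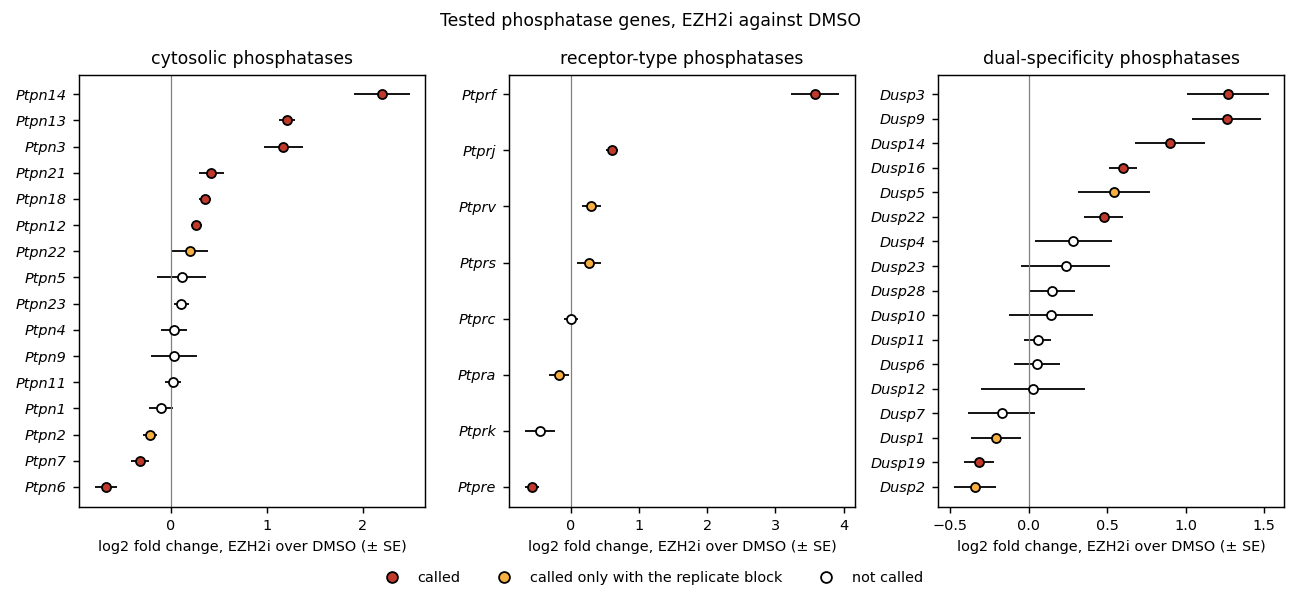
Log2 fold change of EZH2i over DMSO with its SE for the 41 tested phosphatase genes, by class, with red for called genes, orange for genes called only with the replicate number as a block and white for the others. Rises reach 3.58 (Ptprf) and 2.20 (Ptpn14), and the largest fall is -0.68 (Ptpn6).

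Libraries of equal number deviated together across the groups, most of all number 6 (r of 0.847), and the number was taken to pair them. This pairing is an assumption. EZH2i libraries 3 and 5 correlated best with DMSO libraries 2 and 4, and r for number 5 was 0.0371 without number 6. With the replicate number as a block, 17 members rose and 8 fell, beside 49.0% of all tested genes called (24.7% higher and 24.3% lower). All 17 members called without the block were called in the same direction with it, and also without both libraries numbered 6, where 44.8% of all genes were called (23.9% higher and 20.9% lower). The groups did not overlap for 9 members higher in EZH2i, where 7.5% of all tested genes had such a pattern, and for 2 members lower in EZH2i, where 2.74% had it. The 9 include Ptprf, whose separation was fixed by the filter and is a description. How many of all genes went the same way in all same-numbered libraries was not counted, so such counts given for members below are descriptions. The split of called genes into higher and lower was 1557 and 709 over all genes, 1800 and 347 with upper-quartile scaling, and 2892 and 2849 with the block.

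Among the cytosolic phosphatases, 6 of 16 tested members rose and 2 fell. The 5 members with a FERM domain, which tethers them under the cell membrane, included 4 of the 6 that rose, where 13.3% of all tested genes were called higher. These 4 lay in the lowest and the next bin by mean level, where 30.0% and 13.9% of genes rose. This grouping by domain, like the others below, is a textbook one and was made after the values were seen. Ptpn14, which restrains the growth coactivator YAP, measured 11.02 CPM in the lowest, 11.4 CPM at the median and 30.2 CPM in the highest EZH2i library, against 2.14, 3.13 and 5.06 CPM in DMSO. Every EZH2i library stood above every DMSO library, and library 6 was the highest of each group. The log2 fold change was 2.20 (SE 0.29, adjusted p = 0.00017), and 2.03 without number 6. Ptpn14 lies on chromosome 1 from 189728268 to 189876695 (GRCm38).

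Ptpn13, a large FERM and PDZ protein known for binding the tail of the death receptor Fas in human cells, measured 20.6, 22.6 and 24.8 CPM (lowest, median and highest) in EZH2i, against 8.94, 10.02 and 10.7 CPM in DMSO. The groups were far apart and library 6 lay within the range of the others in EZH2i. With a log2 fold change of 1.21 (SE 0.081, adjusted p = 1.2e-06), this was the smallest p of the tested phosphatase genes. Ptpn13 lies on chromosome 5 from 103425192 to 103598303. Ptpn3, a related FERM and PDZ phosphatase, measured 4.76, 5.79 and 10.9 CPM in EZH2i, against 2.22, 3.04 and 3.42 CPM in DMSO (log2 fold change 1.17, SE 0.20, adjusted p = 0.00129). The groups did not overlap, and EZH2i library 6 was the highest, with 10.9 CPM where the other EZH2i libraries reached 6.26 CPM. Its log2 fold change was 0.98 without number 6 and 1.82 within it.

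Ptpn21, a FERM phosphatase that binds Src-type kinases, measured 5.45, 8.08 and 9.39 CPM in EZH2i, against 5.14, 5.76 and 6.56 CPM in DMSO. The groups overlapped through EZH2i library 6, the lowest of its group. The log2 fold change was 0.42 (SE 0.13, adjusted p = 0.0402, 0.0121 with the block). The call was lost when DMSO library 2, 3, 4 or 5 or EZH2i library 2, 3, 4 or 5 was left out (adjusted p of 0.0618 to 0.0928). Ptpn4, the close relative of Ptpn3, averaged 14.2 ± 1.67 CPM in EZH2i and 13.9 ± 2.997 CPM in DMSO (adjusted p = 0.898).

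The PEST phosphatases carry a proline-rich tail, by which they meet adaptor proteins. Ptpn18, one of this group, measured 67.7, 73.2 and 77.7 CPM in EZH2i, against 52.3, 57.0 and 62.6 CPM in DMSO, with no overlap (log2 fold change 0.35, SE 0.062, adjusted p = 0.00134). Ptpn12 (PTP-PEST), which acts on adhesion proteins, measured 42.6, 48.0 and 49.9 CPM in EZH2i, against 37.8, 39.2 and 39.5 CPM in DMSO, also with no overlap (log2 fold change 0.26, SE 0.061, adjusted p = 0.00813). These rises were small, 1.28-fold for Ptpn18 and 1.20-fold for Ptpn12. Ptpn22, the partner of the kinase Csk in damping T cell receptor signals, measured 371, 779 and 841 CPM in EZH2i, against 403, 662 and 727 CPM in DMSO. Library 6 was the lowest of each group. The log2 fold change of 0.19 (SE 0.19) was not called (adjusted p = 0.530), but was with the block (0.0355) and without number 6 (0.23, adjusted p = 0.00811).

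The SH2 phosphatases are drawn to phosphorylated inhibitory receptors. Ptpn6, which encodes SHP-1 and is on chromosome 6 from 124720707 to 124738714, measured 205, 235 and 270 CPM in EZH2i, against 273, 370 and 472 CPM in DMSO. Every EZH2i library was below every DMSO library, and EZH2i was lower in 6 of 6 same-numbered libraries. The fall had a log2 fold change of -0.68 (SE 0.11, adjusted p = 0.000943), and -0.64 without number 6. Ptpn11, which encodes SHP-2, measured 96.1, 104 and 136 CPM in EZH2i, against 101, 102 and 118 CPM in DMSO (adjusted p = 0.878). Its groups overlapped throughout. The ratio of Ptpn6 to Ptpn11, each per kilobase of annotated exons, was 5.77 ± 0.635 in EZH2i and 9.37 ± 1.68 in DMSO (SD, n = 6 each), given as a description.

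Of the pair of enzymes that act on JAK kinases and STAT factors, neither was called. Ptpn2 (TC-PTP) measured 88.9, 98.1 and 106 CPM in EZH2i, against 96.4, 115 and 128 CPM in DMSO, and was lower in 6 of 6 same-numbered libraries although the groups overlapped. The log2 fold change was -0.22 (SE 0.073, adjusted p = 0.0535), and the adjusted p was 0.00574 with the block, 0.0110 without DMSO library 4, 0.0385 without EZH2i library 6 and 0.0302 without number 6. Ptpn1 (PTP1B) averaged 204 ± 46.8 CPM in EZH2i and 218 ± 19.7 CPM in DMSO (adjusted p = 0.626, 0.1005 with the block). EZH2i library 6 stood at 298 CPM while the other EZH2i libraries averaged 185 ± 6.52 CPM. Ptpn1 was lower by a log2 difference of -0.24 (adjusted p = 0.0141) when EZH2i library 6 was left out, and of -0.19 (0.00428) when both libraries numbered 6 were.

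Ptpn7, a phosphatase of blood cells that binds and inactivates ERK and p38, fell. It measured 132, 140 and 187 CPM in EZH2i, against 159, 182 and 212 CPM in DMSO, overlapping through EZH2i library 6 alone, which stood above DMSO libraries 2, 4 and 5. EZH2i was lower in 6 of 6 same-numbered libraries (log2 fold change -0.32, SE 0.094, adjusted p = 0.0296). The call did not hold with upper-quartile scaling (adjusted p = 0.0603) or without DMSO library 1 or 3 or EZH2i library 1, 2, 3, 4 or 5 (0.0557 to 0.0905). Ptpn5, its relative of the nervous system, averaged 3.02 ± 1.40 CPM in EZH2i and 2.81 ± 0.576 CPM in DMSO (adjusted p = 0.810). Ptpn9 (adjusted p = 0.949), a phosphatase of secretory vesicles, and Ptpn23 (adjusted p = 0.383), which serves endosomal sorting, were the other cytosolic members not called.

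**Figure D2:**
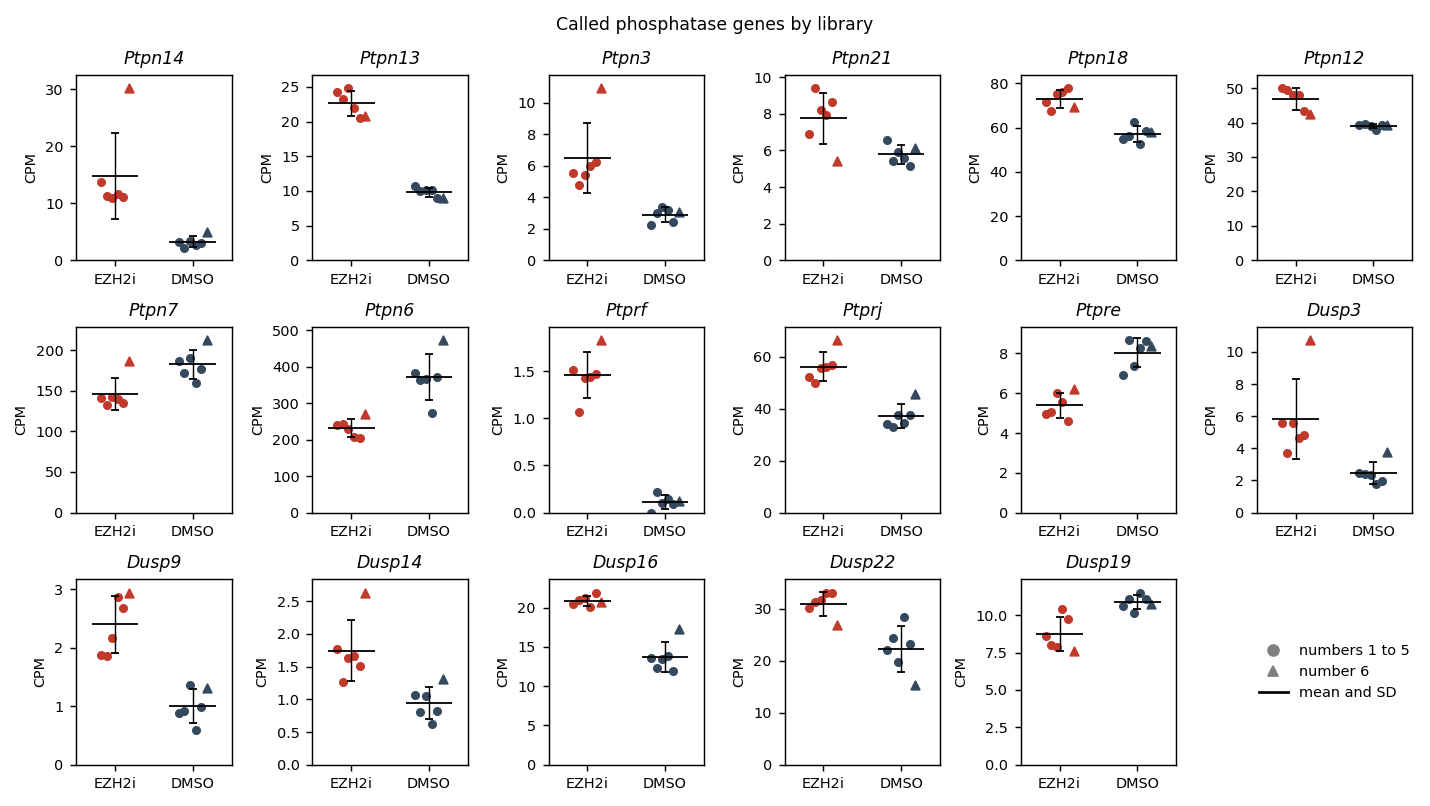
CPM in each library for the 17 called phosphatase genes, with EZH2i left of DMSO, points in the order of replicate numbers 1 to 6, a triangle for number 6, and lines and bars for the mean and SD. Ptpn14, Ptpn3 and Dusp3 show EZH2i library 6 well above the others of its group, at 30.2, 10.9 and 10.7 CPM.

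Receptor-type phosphatases mostly had few or no counts, with 8 of 21 members tested. Of these 2 rose, Ptprf and Ptprj, and 1 fell, Ptpre, where 13.3% of all tested genes were called higher and 6.05% lower. Ptprf encodes LAR, a receptor of epithelial and nerve cells that organises synapses and cell contacts. It measured 1.07, 1.45 and 1.83 CPM in EZH2i, against 0, 0.112 and 0.221 CPM in DMSO, from 235 and 16 counts in all. Each EZH2i library was above each DMSO library, with a log2 fold change of 3.58 (SE 0.36) and an adjusted p of 1.73e-05. Ptprf passed the filter only through the EZH2i libraries and so had to differ, which makes its call and its separation of the groups a description. Ptprf lies on chromosome 4 from 118208213 to 118291405.

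Ptprj encodes CD148, which acts on the same Src-family kinases as CD45. It measured 49.9, 55.8 and 66.2 CPM in EZH2i, against 33.1, 36.0 and 45.7 CPM in DMSO (log2 fold change 0.60, SE 0.093, adjusted p = 0.000541). The groups did not overlap, and library 6 was the highest of each. Ptpre encodes PTP epsilon and fell, with 4.62, 5.31 and 6.19 CPM in EZH2i, against 6.93, 8.34 and 8.65 CPM in DMSO (log2 fold change -0.57, SE 0.11, adjusted p = 0.00204). Its groups did not overlap either. A gene on the opposite strand, 5830432E09Rik, overlaps Ptpre, and without the strand setting of the counting their reads cannot be told apart.

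Ptprc, the most abundant member by CPM, measured 1711, 2291 and 2348 CPM in EZH2i, against 1856, 2161 and 2580 CPM in DMSO. The groups overlapped and 3 of 6 same-numbered libraries were higher. Its log2 fold change was 0.00 to 2 decimals (SE 0.096, adjusted p = 0.996). Over the alternatives it ran from -0.05 to 0.06, on both sides of 0. Ptpra, the close relative of Ptpre and an activator of Src kinases, averaged 137 ± 26.9 CPM in EZH2i and 155 ± 22.6 CPM in DMSO (adjusted p = 0.446, 0.0160 with the block). An antisense gene, 4930473A02Rik, overlaps it. Ptprs, a receptor of nerve cells for heparan sulphate, averaged 83.1 ± 20.4 CPM in EZH2i and 69.5 ± 19.3 CPM in DMSO, higher in 6 of 6 same-numbered libraries (adjusted p = 0.349, 0.000899 with the block). Library 6 held 124 CPM of Ptprs in EZH2i and 108 CPM in DMSO, and without DMSO library 6 the adjusted p was 0.0423. Ptprv averaged 12.7 ± 2.39 CPM in EZH2i and 10.3 ± 1.52 CPM in DMSO (adjusted p = 0.170, 0.0104 with the block and 0.0444 without EZH2i library 6). Ptprk, a receptor of cell contacts, was at 1.83 ± 0.520 CPM in EZH2i and 2.51 ± 0.670 CPM in DMSO (adjusted p = 0.181).

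The other 13 receptor-type members were under the filter. Ptprr, a membrane-bound relative of Ptpn7 that also binds ERK, had 96 counts in EZH2i and 6 in DMSO, a ratio of 13.4 after scaling (95% counting interval 5.92 to 37.3). Ptpru had 82 counts in EZH2i and 10 in DMSO, a ratio of 6.85 (3.54 to 14.8). Ptpro, known from kidney podocytes, had 31 counts in 5 EZH2i libraries and none in DMSO, and was at least 8.63-fold higher if DMSO as a group is set to the floor of 3 counts. Of these counts 15 lay in EZH2i library 4, and without it Ptpro was at least 5.30-fold higher, with 16 counts. Intervals and floors cover counting error only. In a fit with no filter on low counts, where 10.8% of 16593 genes were called higher and 3.89% lower, these were called, with an edgeR adjusted p of 0.00069 for Ptprr, 0.0014 for Ptpru and 0.0348 for Ptpro, which was not refitted without EZH2i library 4. Ptprr and Ptpru had counts in all 6 EZH2i libraries, and the lowest EZH2i library stood above the highest DMSO library for both. How many of all genes under the filter show such a separation was not counted, so it is a description. The protein-coding gene 4933416C03Rik overlaps Ptprr on the opposite strand. Ptprn2 had 19 counts in EZH2i, 11 of them in 1 library, and 4 in DMSO, and Ptprn had 28 in EZH2i and 16 in DMSO; both belong to insulin and other secretory granules, and neither was called (adjusted p = 0.270 and 0.549). Ptprg had 8 counts in EZH2i and 1 in DMSO. Ptprb, Ptprd, Ptprh, Ptprm and Ptprz1 had a single count over all 12 libraries, and Ptprq and Ptprt had none, which allows up to 3 counts in a group.

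**Figure D3:**
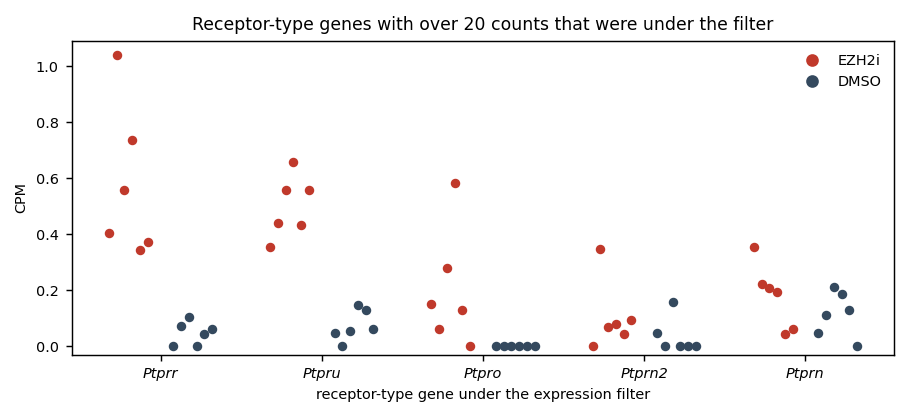
CPM in each of 12 libraries for the 5 receptor-type genes under the expression filter with over 20 counts in all, EZH2i left of DMSO. Ptprr and Ptpru separate the groups, with 96 and 82 counts in EZH2i and 6 and 10 in DMSO, and Ptprn and Ptprn2 do not. Both passed the cut of 20 counts through EZH2i, so their separation is a description.

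Of the dual-specificity phosphatases, 5 of 17 tested members rose and 1 fell, where 13.3% of all tested genes were called higher and 6.05% lower. The MAP kinase phosphatases proper, which carry a kinase-binding domain, gave 2 of the 5 from 9 tested. Dusp16, which acts on JNK and p38, measured 20.03, 20.8 and 21.9 CPM in EZH2i, against 11.96, 13.5 and 17.3 CPM in DMSO (log2 fold change 0.60, SE 0.090, adjusted p = 0.00043). The groups did not overlap, and DMSO library 6 was the highest of its group. Dusp9, which acts mainly on ERK and is known from placenta, measured 1.86, 2.42 and 2.94 CPM in EZH2i, against 0.591, 0.957 and 1.37 CPM in DMSO, with no overlap. Its log2 fold change was 1.26 (SE 0.22, adjusted p = 0.00127). By mean level, Dusp9 lay in the lowest bin and Dusp16 in the next, where 30.0% and 13.9% of genes rose.

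The inducible phosphatases that follow ERK activity as its feedback did not pass the test. Dusp6, which holds ERK in the cytoplasm, averaged 82.0 ± 7.67 CPM in EZH2i and 79.1 ± 19.3 CPM in DMSO (adjusted p = 0.841). Dusp5, its nuclear counterpart, averaged 41.4 ± 11.1 CPM in EZH2i and 28.3 ± 8.27 CPM in DMSO and was higher in 6 of 6 same-numbered libraries (adjusted p = 0.116, 0.00189 in the blocked fit). EZH2i library 6 was at 20.9 CPM while the other EZH2i libraries averaged 45.5 ± 5.25 CPM, and without it the adjusted p of Dusp5 was 0.0104. Dusp2 (PAC-1), a nuclear phosphatase of activated lymphocytes, averaged 41.8 ± 6.76 CPM in EZH2i and 52.9 ± 9.73 CPM in DMSO and was lower in 6 of 6 (adjusted p = 0.0968, 0.000469 in the blocked fit, 0.0298 without DMSO library 6). Dusp1, an immediate early phosphatase of all 3 MAP kinases, averaged 13.6 ± 2.76 CPM in EZH2i and 15.6 ± 2.85 CPM in DMSO (adjusted p = 0.414, 0.0473 with the block); Ergic1 overlaps it on the opposite strand. Dusp4 averaged 9.29 ± 3.58 CPM in EZH2i and 7.66 ± 1.93 CPM in DMSO. Dusp4 (adjusted p = 0.470), Dusp7 (0.632) and Dusp10 (0.761), which act on ERK or, for Dusp10, on JNK and p38, were not called. Dusp8 had 2 counts, both in DMSO.

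Of 8 tested atypical members, which lack that domain, 3 rose and 1 fell, to be read beside the same 13.3% and 6.05%. By mean level, Dusp3 and Dusp14 lay in the lowest bin, where 30.0% of genes rose and 0.887% fell. Dusp22, which rose, and Dusp19, which fell, lay in the next, where 13.9% rose and 3.75% fell. Dusp3 (VHR), which acts on ERK and JNK, measured 3.69, 5.20 and 10.7 CPM in EZH2i, against 1.77, 2.37 and 3.75 CPM in DMSO. The groups overlapped slightly, since DMSO library 6 stood above the lowest EZH2i library, and EZH2i was higher in 6 of 6 same-numbered libraries (log2 fold change 1.27, SE 0.26, adjusted p = 0.00402), and 1.16 without number 6. Dusp14, which in mouse T cells restrains signalling from the antigen receptor, measured 1.26, 1.65 and 2.63 CPM in EZH2i, against 0.628, 0.936 and 1.31 CPM in DMSO (log2 fold change 0.90, SE 0.23, adjusted p = 0.0131). Dusp22 (JKAP), which removes phosphate from Lck, measured 26.9, 31.4 and 33.1 CPM in EZH2i, against 15.4, 22.7 and 28.4 CPM in DMSO (log2 fold change 0.48, SE 0.12, adjusted p = 0.0158). For both, the groups overlapped by a small margin and 6 of 6 same-numbered libraries were higher.

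Dusp19, a phosphatase of the JNK pathway, measured 7.62, 8.30 and 10.4 CPM in EZH2i, against 10.1, 10.9 and 11.5 CPM in DMSO (log2 fold change -0.32, SE 0.096, adjusted p = 0.0332). EZH2i library 4 overlapped the DMSO libraries. The call did not hold with upper-quartile scaling (adjusted p = 0.0966) or without DMSO library 1, 2, 4 or 5 or EZH2i library 1, 2 or 3 (0.0511 to 0.0806), and Nup35 overlaps Dusp19 on the same strand. Dusp11, a phosphatase of RNA ends, was the most abundant of the class by CPM, at 233 ± 20.9 CPM in EZH2i and 224 ± 24.5 CPM in DMSO (adjusted p = 0.699). Dusp12 (0.969), Dusp23 (0.622) and Dusp28 (0.527) were not called either, by their adjusted p. Among the members under the filter, Dusp18 had 44 counts in EZH2i and 42 in DMSO, Dusp15 had 6 in EZH2i and none in DMSO, and Dusp13, Dusp26 and Dusp27 had at most 4 in all.

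**Figure D4:**
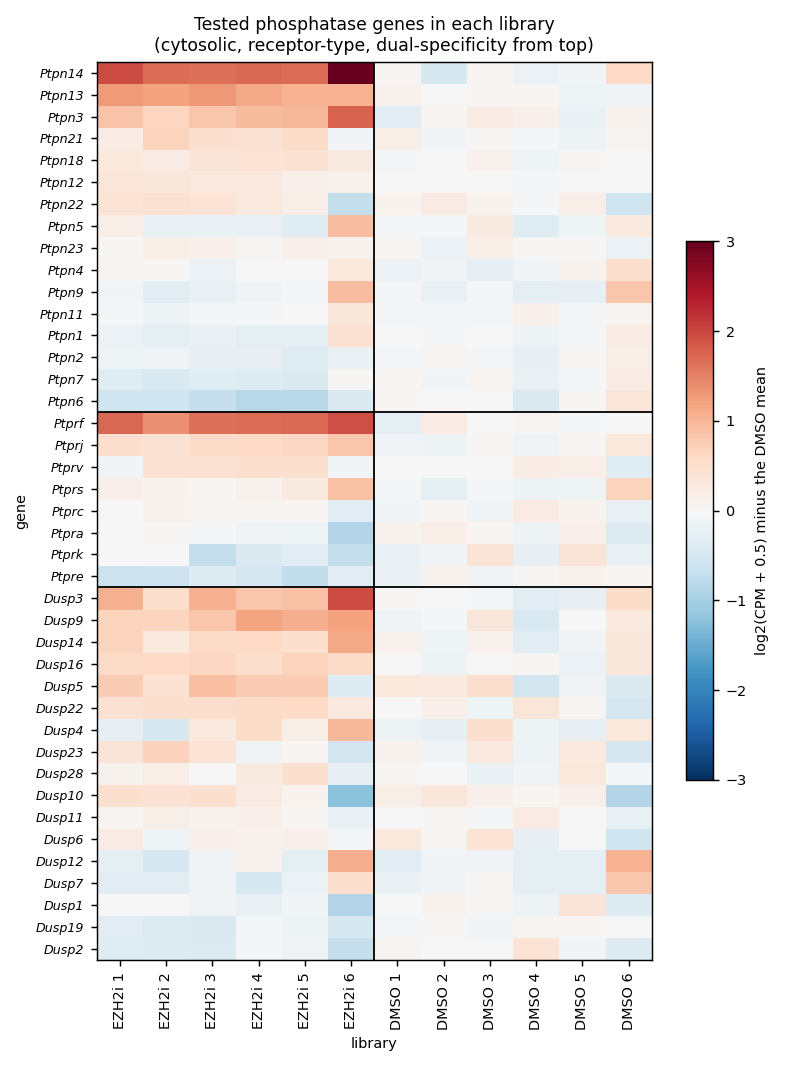
Log2(CPM + 0.5) of the 41 tested members in each library minus the mean of the DMSO libraries, EZH2i libraries left of DMSO libraries, with the classes separated by lines. Library 6 departs from its own group in EZH2i and in DMSO, as for Ptpn9 (93.0 CPM in EZH2i and 88.0 CPM in DMSO) and Dusp10 (11.4 CPM in EZH2i and 14.8 CPM in DMSO).

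Several members varied more with the library number than with the inhibitor. Dusp12 stood at 12.2 CPM in EZH2i library 6 while the other EZH2i libraries averaged 4.69 ± 0.876 CPM, and at 11.9 CPM in DMSO library 6 while the other DMSO libraries averaged 4.68 ± 0.396 CPM. Ptpn9 was likewise high in number 6, with 93.0 CPM beside 43.8 ± 3.57 CPM in EZH2i and 88.0 CPM beside 43.6 ± 3.24 CPM in DMSO. Dusp7 was high as well, with 44.6 CPM beside 26.0 ± 2.58 CPM in EZH2i and 56.0 CPM beside 28.2 ± 2.94 CPM in DMSO. Dusp10 was low in number 6, with 11.4 CPM beside 35.4 ± 4.09 CPM in EZH2i and 14.8 CPM beside 31.2 ± 2.22 CPM in DMSO, and so was Ptpn22. What the numbers mark is not stated.

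To compare levels between genes, CPM was divided by the length of annotated exons in kilobases. This length joins the exons of all annotated transcripts, 18313 bases for Ptprc and 2802 for Ptpn6, and can exceed that of the RNA present. The order of genes and their shares of a sum depend on it and are a description. On this scale Ptprc (119 in EZH2i and 119 in DMSO), Ptpn22 (105 in EZH2i and 92.2 in DMSO) and Ptpn6 (82.9 in EZH2i and 133 in DMSO) were the most abundant, followed by Ptpn1 (36.8 in EZH2i and 39.5 in DMSO) and Ptpn2 (31.5 in EZH2i and 36.7 in DMSO). The summed level of all 62 genes was 630 ± 26.3 CPM per kilobase in EZH2i and 664 ± 19.9 in DMSO. Ptpn6 made up 13.2 ± 1.79% of that sum in EZH2i and 19.9 ± 3.31% in DMSO. Levels summed by class were 343 ± 15.0 in EZH2i and 385 ± 29.0 in DMSO for cytosolic members, 147 ± 13.9 in EZH2i and 145 ± 13.8 in DMSO for receptor types, and 139 ± 11.2 in EZH2i and 134 ± 10.8 in DMSO for dual-specificity members.

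The CG content of the promoter windows was compared over the 50 members found in the RefSeq table, taking for each gene the window with most CG. The tested members that rose held 18 to 49 CG with a median of 33 (11 of 13 matched), and those that fell 8 to 20 with a median of 10 (3 of 4 matched). Members under the filter held 3 to 46, with a median of 16 (15 of 21 matched). Of those called higher in the fit with no filter, Ptprr held 12 CG, Ptpro 5 and Ptpru 40. Members tested and not called held 4 to 47, with a median of 25, and all tested genes a median of 22. The 2 letters CG, which read alike on both strands, occur at least once in 94.6% of all 32851 windows. Too few of the members that fell (3 of 4), of those under the filter (15 of 21) and of all tested genes (8996 of 11727) were matched. A comparison with those is therefore void and their values are a description. Among members not called, Ptpn1 held 47 CG, Ptpn4 held 44 and Ptprc held 4.

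**Figure D5:**
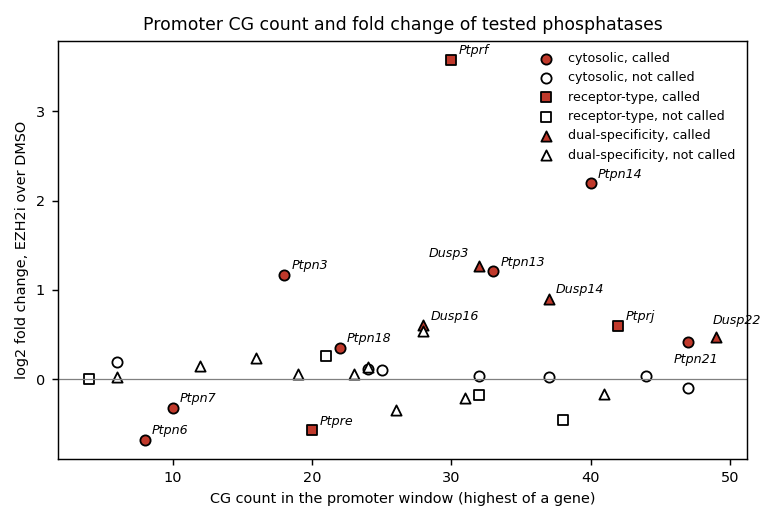
Highest CG count in a 300-base promoter window on the x axis against the log2 fold change of EZH2i over DMSO on the y axis, for tested members found in the RefSeq table, with called members in red. The 11 matched tested members that rose hold at least 18 CG, while tested members not called lie between 4 and 47. Members under the filter are not shown, among them Ptprr with 12 CG and Ptpro with 5.

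Genes that work with these phosphatases were counted in 5 related lists, read beside the 13.3% higher and 6.05% lower of all tested genes. With the block these shares were 24.7% and 24.3%, and without number 6 they were 23.9% and 20.9%. Without EZH2i library 6, 2262 of all genes rose and 1817 fell. Counts from these fits are to be read beside those values. Of 20 tested phosphatases outside the 3 families, 1 rose and 2 fell. These counts were 5 and 6 without EZH2i library 6, 4 and 7 with the block, and 6 and 7 without number 6. The count higher was 2 without DMSO library 4. The count lower was 4 without DMSO library 6, 5 with DESeq2, 4 with RLE size factors and 1 with upper-quartile scaling. Ubash3b (Sts-1), a phosphatase that acts on the kinase ZAP-70, rose to 103 ± 4.52 CPM in EZH2i, against 77.9 ± 3.98 CPM in DMSO (adjusted p = 0.000204). Its paralogue Ubash3a (Sts-2) fell to 103 ± 5.92 CPM in EZH2i, against 136 ± 9.18 CPM in DMSO (adjusted p = 0.00062). The mRNA capping enzyme Rngtt also fell (log2 fold change -0.26, adjusted p = 0.0121).

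Of 15 tested MAP kinases, on which many dual-specificity phosphatases act, and their upstream kinases, 4 rose and 0 fell. The count higher was 2 without DMSO library 3, DMSO library 5 or EZH2i library 3, a share near that of all tested genes. With the block 6 rose and 1 fell, and without number 6 these counts were 7 and 0. The 4 were Mapk12 (log2 fold change 1.32, adjusted p = 0.0417), Mapk8, which encodes JNK1 (0.36, 0.0057), Mapk14, which encodes p38 alpha (0.31, 0.0241), and Mapk9, which encodes JNK2 (0.25, 0.0139). Mapk12 stood at 13.5 CPM in EZH2i library 6 and 5.36 CPM in DMSO library 6, the highest of each group, and its log2 fold change was 1.28 without number 6. Of 16 tested genes of the ERK response and its feedback, 4 rose and 0 fell. With the block 7 rose and 1 fell, and without number 6 these counts were 7 and 0. Spred3, an inhibitor of the ERK pathway, rose to 3.49 ± 1.15 CPM in EZH2i, against 0.455 ± 0.208 CPM in DMSO (adjusted p = 0.00011). Its lowest DMSO library held 0.0595 CPM, so Spred3 passed the filter on low counts only through EZH2i libraries and its call is a description. The transcription factors Etv5 (log2 fold change 2.42) and Fosl2 (1.35) and the early gene Ier3 (0.43) also rose (adjusted p = 0.00428, 8.01e-06 and 0.0266). Etv5 was highest in EZH2i library 6, at 18.4 CPM, and its log2 fold change was 2.62 without number 6.

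Of 23 tested genes of proximal T cell receptor signalling, 1 rose and 8 fell. The count lower was 4 without EZH2i library 4, and 5 without DMSO library 1 or 2, without EZH2i library 2 or 5, or with upper-quartile scaling. The count higher was 3 without DMSO library 4 or EZH2i library 6 and 2 with upper-quartile scaling. With the block 3 rose and 11 fell, and without number 6 these counts were 4 and 9. The kinase Syk, the relative of ZAP-70 in B cells, rose to 3.10 ± 0.880 CPM in EZH2i, against 0.702 ± 0.254 CPM in DMSO (adjusted p = 0.000145). With 0.302 CPM in its lowest DMSO library, Syk needed EZH2i libraries to pass the filter on low counts, so its call is a description. Ptprcap, the membrane partner of CD45, fell to 184 ± 21.5 CPM in EZH2i, against 243 ± 38.7 CPM in DMSO (adjusted p = 0.0235). Sit1, an adaptor that binds SHP-2, also fell (-0.62 on the log2 scale, adjusted p = 0.00579), as did Cd3g (-0.37, 0.0488). Of 11 tested receptors that recruit SHP-1 or SHP-2 or were listed with them, 4 rose and 0 fell: Cd200r1 (log2 fold change 1.14, adjusted p = 0.00128), Pdcd1 (0.87, 0.000679), Lilrb4a (0.63, 0.00574) and Cd72 (0.50, 0.0293). The count higher of these receptors ran from 3 to 5 when 1 library was left out, and the count lower was 1 without EZH2i library 6. With the block 6 rose and 2 fell, and without number 6 these counts were 6 and 1.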

How the data were processed

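Polyadenylated RNA of 12 libraries, 6 EZH2i and 6 DMSO by their labels, had been sequenced. Per the labels' protocols, libraries were made with a stranded TruSeq mRNA kit and sequenced as single-end reads. For each library the authors deposited raw counts by gene symbol. Per the submitters' processing notes, reads met build GRCm38 (mm10) and the tools TopHat2 2.1.1, featureCounts, Trimmomatic 0.38, FastQC 0.11.7 and SAMtools 1.9. Not given in the sources used here: annotation, strand setting, multi-mapped reads. Overlapping and antisense genes are therefore uncertain.

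The tests used edgeR 4.0.16 (R 4.3.3): filterByExpr defaults, TMM scaling and the two-sided quasi-likelihood test on a model with the group alone, fitted on 11727 genes with Benjamini-Hochberg adjustment over all of them. DESeq2 1.42.0 and limma 3.58.1 (voom) were alternatives. The fit was tested on simulated counts. Each SE was taken from the estimate and its F statistic. Positions and exon lengths come from GENCODE M21, where all 62 members were found.

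The members and lists were chosen with earlier results of these data known. Named are all called members, those called only with the block, a fixed set of phosphatases known in T cells, and up to 4 called genes of each of 5 related lists. Results for a few other genes are not reported here. The replicate numbers of the labels are shared by the groups; after subtracting group means, equal numbers correlated with r of 0.213, 0.445, 0.286, 0.527, 0.317 and 0.847, all over 0.1, which was read as pairing. It rests on the data, not on a label. EZH2i libraries 1, 2, 4 and 6 correlated best with their own number, 3 with DMSO library 2 and 5 with DMSO library 4. The group means subtracted included number 6, which deviated in both groups. An r over 0.1 for numbers 1 to 5 therefore does not by itself show pairing. Without number 6 the lowest r was 0.0371, for number 5, which is under that limit. Pairing was thus an assumption of the block and of counts over same-numbered libraries. Library pairs of a group differed beyond sampling noise (lowest chi-square over its degrees of freedom 4.94), so none was counted as a duplicate.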

Additional observations from a re-analysis of the deposited data

Results flagged for a closer look

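Within a group of 6 libraries, a value was singled out when its gap to the nearest other library was a larger part of the group's range, on the log2(CPM + 0.5) scale, than Dixon's 95% critical value. Of 42 groups checked, over the 17 called members and Ptprc, Ptpn2, Ptpn11 and Ptpn22, 8 values met this, 7 of them in library 6. Chance flags about 1 in 20 groups.

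In EZH2i library 6, Ptpn14 stood at 30.2 CPM while the other EZH2i libraries ran from 11.02 to 13.8 CPM. Ptpn3 stood there at 10.9 CPM, beside 4.76 to 6.26 CPM in the others. Ptpn7 stood at 187 CPM, beside 132 to 142 CPM, and Ptpn11 at 136 CPM, beside 96.1 to 107 CPM. Ptprc was low in that library, at 1711 CPM beside 2154 to 2348 CPM. Ptpn22 was low in number 6 of both groups, at 371 CPM in EZH2i beside 701 to 841 CPM, and at 403 CPM in DMSO beside 586 to 727 CPM. In DMSO library 4, Ptpn12 stood at 37.8 CPM, beside 39.1 to 39.5 CPM in the other DMSO libraries, a gap that is wide only against their narrow range.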

How the results depend on the processing

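All 17 called members kept their direction under every alternative run, and 14 of them their call in each fit that left out a single library, the exceptions being Ptpn7, Ptpn21 and Dusp19. Ptpn21 also lost its call with limma-voom (adjusted p = 0.0637) and with no filter on low counts (0.0581). With the replicate block, 8 more members were called (Ptpn2, Ptpn22, Ptprv, Ptprs, Ptpra, Dusp1, Dusp5 and Dusp2), and the block ended no call. Ptpn2 was also called with RLE size factors (0.0457) and DESeq2 (0.0221). Counts of receptor-type members called higher, 2 in the fit reported, were 5 with DESeq2, 5 with no filter and 4 with the block, and lower 1 and, with the block, 2. Cytosolic members called lower, 2, were 1 with upper-quartile scaling. Dual-specificity members called lower, 1, were 3 in the blocked fit and 0 after upper-quartile scaling. Over all genes, 1557 higher became 2892 with the block, and 709 lower became 347 with upper-quartile scaling, 1107 with DESeq2 and 2849 with the block. Leaving out libraries gave 1297 to 2815 genes higher and 435 to 2455 lower over all genes. For members it gave 5 to 7 cytosolic higher and 1 to 4 lower, 2 to 4 receptor-type higher and 1 to 1 lower, and 5 to 6 dual-specificity higher and 0 to 2 lower. The cytosolic count lower was 4 without EZH2i library 6, and the receptor-type count higher 4 and the dual-specificity count lower 2 without DMSO library 6. The log2 fold changes of 8 tested members crossed 0, none of them called. Leaving out libraries, they ran from -0.03097 to 0.1501 for Ptpn4, -0.05236 to 0.05653 for Ptpn11, -0.04726 to 0.05922 for Ptprc, -0.04974 to 0.1311 for Dusp6, -0.3342 to 0.04319 for Dusp7, -0.19 to 0.20 for Ptpn5, -0.22 to 0.25 for Ptpn9 and -0.31 to 0.35 for Dusp12. Ptprc was also at 0.06048 with upper-quartile scaling and 0.005239 with at least 1 CPM in 6 samples. The cause of these changes was not tested. Of the 13 receptor-type members under the filter, 7 had at most 1 count in all, and a difference was not detectable there at this depth. Counts for the related lists moved with single libraries, the block and the scaling, as given beside them.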
